A study of Mus musculus with 12 samples.

Results

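The genes described here are 10 mouse genes of iron uptake, storage and regulation, listed by name and found by identifier among the 21853 protein-coding genes of the deposited expression table. They are the transferrin receptor genes Tfrc and Tfr2, the endosomal ferrireductase gene Steap3, the ferrous iron transporter gene Slc11a2, the mitochondrial iron importer gene Slc25a37, the ferritin genes Fth1 and Ftl1, the ferritin cargo receptor gene Ncoa4, and the iron regulatory protein genes Ireb2 and Aco1. All 10 matched an identifier and passed the filter on low values, which kept 10994 genes.

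Whole bone marrow cells of B6 mice were profiled by RNA sequencing at day 14 in 4 groups of 3 libraries. Control mice were not irradiated, and the sources used here state no gavage for them. TBI mice received 5 Gy of total body irradiation with gamma rays at 0.66 Gy/min, and 100 µL of olive oil as vehicle was given to them by gavage. TBI+DEIX mice received the same irradiation and then 25 mg/kg of DEIX (deinoxanthin, a bacterial carotenoid) by mouth, daily for 14 days. DEIX mice received DEIX without irradiation, and the medium in which DEIX was given is not stated. A difference between TBI and control therefore holds irradiation and vehicle, which cannot be told apart. Likewise, a difference between DEIX or TBI+DEIX and control holds DEIX together with its medium and dosing. The effect of DEIX is taken against vehicle in irradiated mice, but against mice with no stated gavage in unirradiated mice. Setting these effects side by side holds that difference too. Nothing states that the libraries of a group came from separate animals, so the p-values measure only the spread between these libraries.

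Developing red cells take up most of the iron used in marrow. Iron bound to transferrin enters through the transferrin receptor, is reduced by STEAP3 in the endosome, leaves through the transporter encoded by Slc11a2, and is carried into mitochondria for haem synthesis by mitoferrin 1, the product of Slc25a37. Surplus iron is held in ferritin shells of heavy (Fth1) and light (Ftl1) chains, and NCOA4 brings ferritin to the lysosome for release. The iron regulatory proteins encoded by Aco1 and Ireb2 bind hairpins called iron-responsive elements when iron is scarce. Such binding stabilises messages with the hairpin in the 3′ UTR and blocks translation of messages with it in the 5′ UTR, so that changes in ferritin protein need not show in ferritin RNA.

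The hairpins are shown because they divide the genes by how the same regulators act on their messages. Transcripts of all 21853 genes (GENCODE vM21, GRCm38, sense strand) were searched for a C, 5 stem bases, the loop CAGTGN and 5 bases that pair with the stem, 17 bases in all. In the sequences the loop is in capitals.
Tfrc 3′ UTR, chr16:32631225-32631241, plus strand: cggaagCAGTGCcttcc
Tfrc 3′ UTR, chr16:32631604-32631620, plus strand: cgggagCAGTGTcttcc
Tfrc 3′ UTR, chr16:32631669-32631685, plus strand: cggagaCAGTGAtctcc
Tfrc 3′ UTR, chr16:32631716-32631732, plus strand: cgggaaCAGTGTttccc
Fth1 5′ UTR, chr19:9982738-9982754, plus strand: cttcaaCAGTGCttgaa
Ftl1 5′ UTR, chr7:45459785-45459801, minus strand: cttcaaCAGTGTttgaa
Slc11a2 3′ UTR, 4 of 5 pairs, chr15:100395159-100395175, minus strand: cagagcCAGTGTgtttc
Full matches were found in 3 of the 10 genes and in 1.35% of all genes searched. The match in Slc11a2 lacked 1 pair and was found in 1 transcript. The Fth1 and Ftl1 sites differed in the last base of the loop, with identical stems. A match is a description of the letters and shows no binding.

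The genes spanned a wide range of RNA levels, given here as FPKM (sequenced fragments normalised for transcript length and library depth), which can be set side by side between genes. Ftl1 ranked at place 17 and Fth1 at place 42 of the 10994 genes by mean FPKM, while Tfr2, Aco1 and Slc11a2 had mean levels of 8.26, 8.80 and 8.95. Differences between groups were tested on log2(FPKM + 1) with limma over all 10994 genes. A gene is said to be called where its p, adjusted by the Benjamini-Hochberg method, was under 0.05. In whole marrow, fewer cells of a type and less RNA per cell cannot be told apart.

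Libraries differed in cell makeup as read from marker RNA. The 19 erythroid markers that were tested (with Hba-a1, Hbb-bs and Hba-a2 the most abundant) summed to 5232 to 8318 FPKM in control, 2832 to 12829 in TBI, 376 to 2520 in TBI+DEIX and 2093 to 11863 in DEIX. None of these markers was at 0 in all libraries. Of the 5 hepatocyte markers, 3 were at 0 in every library and the sum never passed 0.127 FPKM. TBI+DEIX replicate 1 stood apart, with the lowest sum of FPKM over all genes (493683, against 549951 to 848843 in the others), the lowest erythroid sum and, by the steps of its low values, the fewest reads, although that estimate was poorly resolved.

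**Figure D1:**
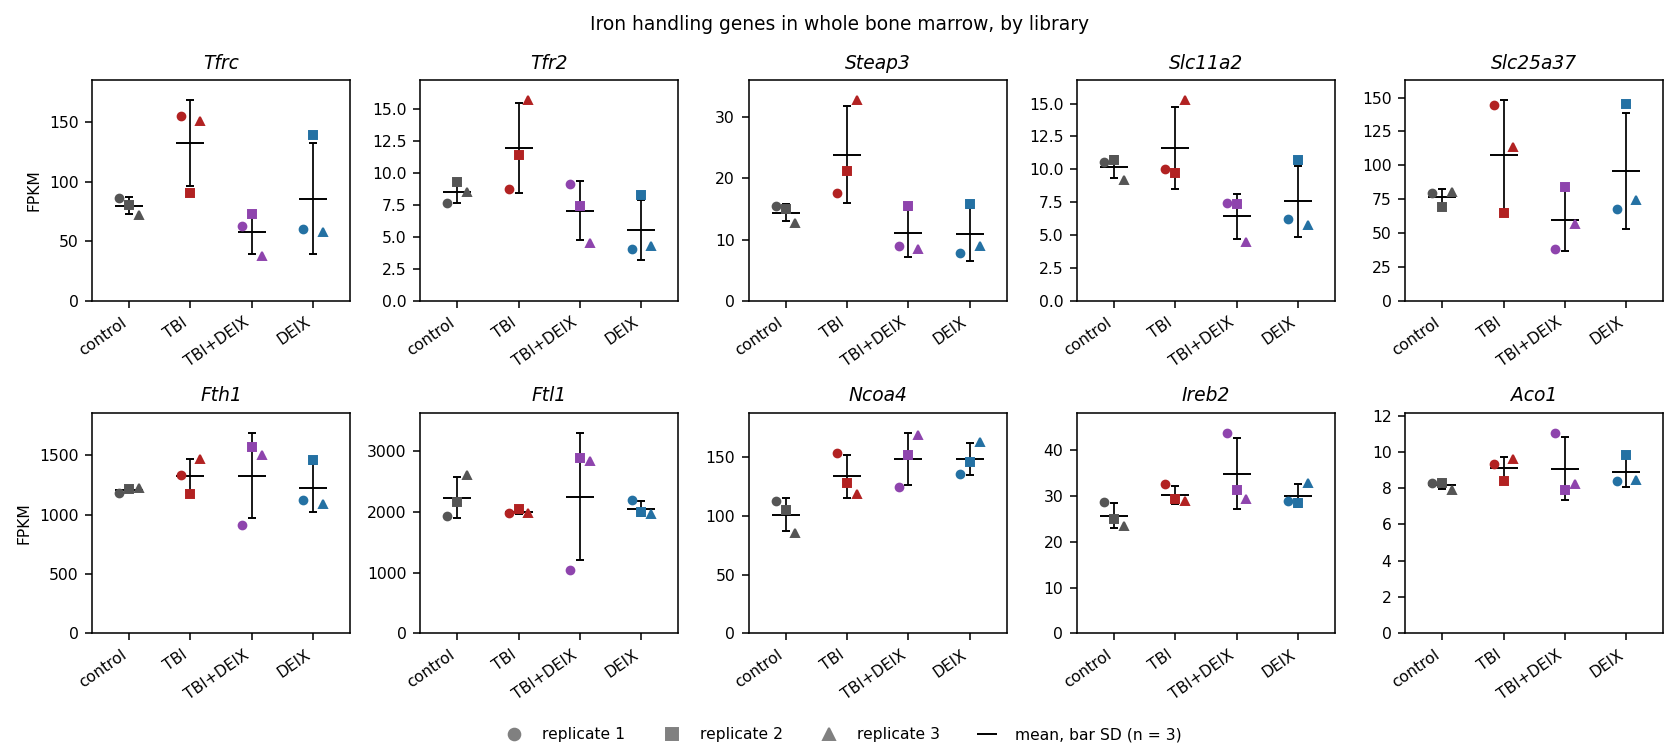
FPKM of the 10 iron handling genes (vertical axes, linear, from 0) in each of the 12 libraries by group; symbols mark the replicate, and black bars the mean and SD of 3 libraries. Each of Tfrc, Tfr2, Steap3 and Slc11a2 has its highest value in a TBI library and its lowest in a TBI+DEIX or DEIX library, Ncoa4 is lowest in control, and Fth1 and Ftl1 are lowest in TBI+DEIX replicate 1.

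Of the uptake genes among the 10, only Steap3 was called in TBI+DEIX against TBI, and the 8 other tested uptake genes, 6 of them with a higher mean, had a median log2 difference of 0.21 and 0 calls. Steap3 fell to 0.483 times its TBI level in TBI+DEIX on the log2(FPKM + 1) scale, and Tfrc, Slc11a2, Slc25a37 and Tfr2 had lower means without passing the test. Across the 10 genes, 1 was called in this comparison, against 8.10% of all tested genes, so the count is near the background. Tfrc, Steap3 and Slc11a2 were lower in every TBI+DEIX library than in every TBI library, 3 of 10, where 12.7% of all tested genes were.

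Tfrc encodes transferrin receptor 1, the main port of entry for transferrin iron. Its level was 86.6, 80.7 and 72.5 FPKM in control, 155, 90.6 and 151 in TBI, 62.8, 72.8 and 37.8 in TBI+DEIX, and 60.0, 139 and 57.8 in DEIX. Every TBI library was above every control and every TBI+DEIX library, whereas the DEIX group held 1 high and 2 low libraries. The log2 difference was -1.19 for TBI+DEIX against TBI (95% interval -1.95 to -0.44, limma adjusted p = 0.0569) and 0.68 for TBI against control (-0.07 to 1.44, limma adjusted p = 0.328). Without TBI+DEIX replicate 1 the first was -1.28 and passed (limma adjusted p = 0.0360), and without TBI+DEIX replicate 2 it was -1.38 and passed (limma adjusted p = 0.0491). It moved away from the threshold without TBI+DEIX replicate 3 (-0.92, limma adjusted p = 0.171), TBI replicate 3 (-1.08, 0.210) or TBI replicate 1 (-1.06, 0.112).

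Steap3 encodes the ferrireductase that converts endosomal ferric iron to the ferrous form. It measured 15.5, 14.9 and 12.8 FPKM in control, 17.6, 21.2 and 32.7 in TBI, 9.03, 15.5 and 8.53 in TBI+DEIX, and 7.88, 15.8 and 8.91 in DEIX. All TBI libraries were above all control and all TBI+DEIX libraries. Steap3 was lower in TBI+DEIX than in TBI by a log2 difference of -1.05 (SE 0.29, limma adjusted p = 0.0480). The call was kept in 5 of 13 alternatives. It was lost without the filter on low values (limma adjusted p = 0.0844), on the TPM scale (0.0811) and with the replicate number as a block (0.0563). It was also lost without TBI replicate 2 (limma adjusted p = 0.0984), TBI replicate 3 (0.203), TBI+DEIX replicate 1 (0.0505) or TBI+DEIX replicate 3 (0.142). With only the 2 compared groups in the model Steap3 was not called (limma adjusted p = 0.157), and limma called 0 genes of the whole table, with 2015 below 0.05 before adjustment.

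Slc11a2 encodes DMT1, which moves ferrous iron out of the endosome. Its level was 10.6, 10.7 and 9.19 FPKM in control, 10.03, 9.69 and 15.2 in TBI, 7.44, 7.35 and 4.48 in TBI+DEIX, and 6.22, 10.7 and 5.79 in DEIX. The TBI+DEIX libraries were below every control and every TBI library. The log2 difference was -0.77 against TBI (SE 0.24, limma adjusted p = 0.0687) and -0.61 against control (limma adjusted p = 0.0759), and both passed without TBI+DEIX replicate 1, at -0.88 (limma adjusted p = 0.0335) and -0.72 (limma adjusted p = 0.0494). Without TBI+DEIX replicate 3 they were -0.57 (limma adjusted p = 0.206) and -0.41 (limma adjusted p = 0.227), and without TBI replicate 3 the first was -0.58 (limma adjusted p = 0.268).

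Tfr2 encodes transferrin receptor 2, which acts in iron sensing and in erythroid precursors partners the erythropoietin receptor. It measured 7.66, 9.29 and 8.54 FPKM in control, 8.77, 11.4 and 15.7 in TBI, 9.13, 7.45 and 4.55 in TBI+DEIX, and 4.10, 8.29 and 4.26 in DEIX. TBI and TBI+DEIX overlapped through TBI+DEIX replicate 1, and the log2 difference was -0.70 (SE 0.28, limma adjusted p = 0.136). Without that library it was -0.89 and passed (limma adjusted p = 0.0452), whereas it was -0.45 without TBI+DEIX replicate 3 (limma adjusted p = 0.364) and -0.50 without TBI replicate 3 (limma adjusted p = 0.429). The ratio of Tfrc to Tfr2 was 13.6 to 16.8 in the 3 DEIX libraries, 8.50 to 11.3 in control and 6.87 to 9.76 in TBI+DEIX, while TBI spanned 7.92 to 17.7. This ratio is given as a description, without a test.

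Slc25a37 encodes mitoferrin 1, the importer that feeds haem synthesis. It measured 79.7, 69.0 and 80.3 FPKM in control, 145, 64.6 and 114 in TBI, 38.1, 84.0 and 56.7 in TBI+DEIX, and 67.8, 145 and 74.7 in DEIX. All 4 groups overlapped. The log2 difference was -0.84 for TBI+DEIX against TBI (SE 0.36, limma adjusted p = 0.161) and 0.24 for DEIX against control (limma adjusted p = 0.723).

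**Figure D2:**
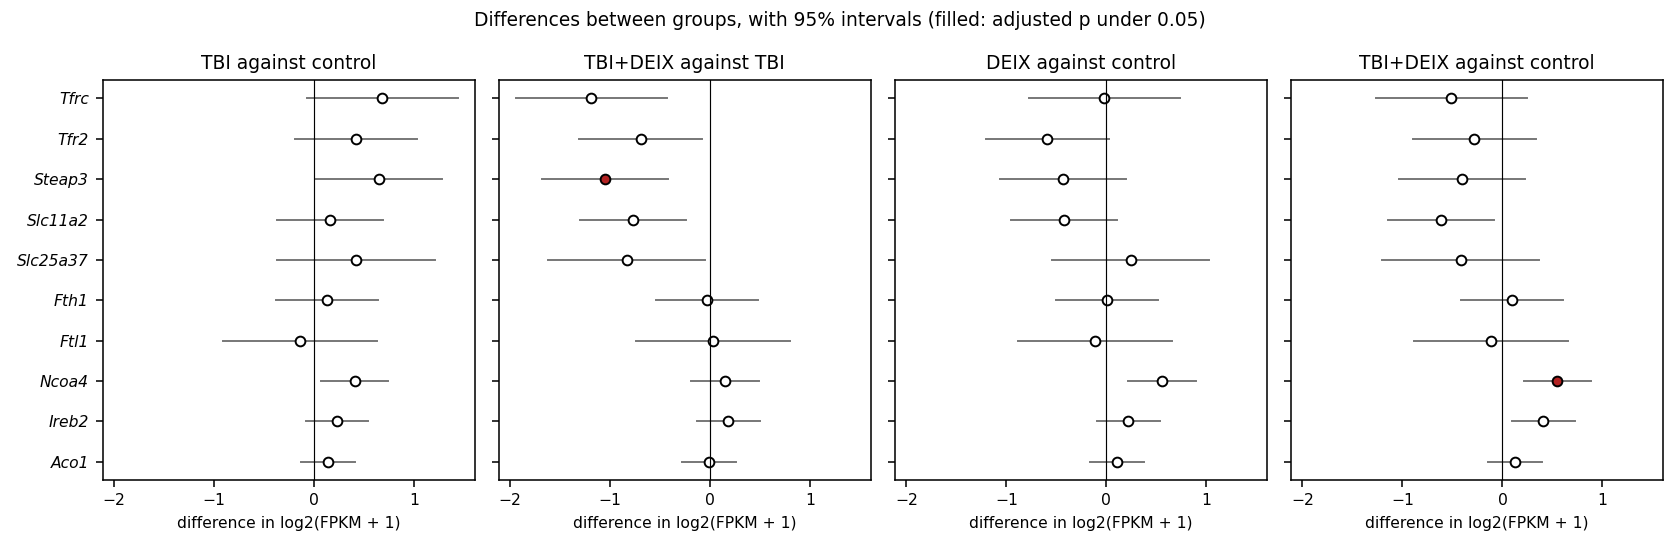
Differences in log2(FPKM + 1) between groups (horizontal axes, with 95% intervals from limma) for the 10 genes in 4 comparisons; filled points passed an adjusted p under 0.05. The filled points are Steap3 in TBI+DEIX against TBI and Ncoa4 in TBI+DEIX against control, and the intervals of Fth1, Ftl1 and Aco1 span 0 in each panel.

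The uptake genes and Slc25a37 had lower means in TBI+DEIX beside lower erythroid markers. In TBI+DEIX against TBI, 19 of 19 erythroid markers had a lower mean, 8 were called lower, and their median log2 difference was -2.06, against -0.84 for the 5 genes of uptake and mitochondrial import and 0.00 for all tested genes. Slc4a1, the anion exchanger of the red cell membrane, differed by -2.64 (limma adjusted p = 0.0418) and Epor, the erythropoietin receptor gene, by -1.25 (limma adjusted p = 0.0417). These marker calls were all lost without TBI replicate 3, where limma called 0 genes lower in the whole table. Without TBI+DEIX replicate 3 it called 5 lower. Proliferation markers also had lower means in TBI+DEIX against TBI, 15 of 15, with 4 called lower and a median log2 difference of -0.49. The parts of erythroid cell content and of proliferation in the differences of the uptake genes were not tested.

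By the mean centred log2 level of the erythroid markers, TBI replicate 1, DEIX replicate 2 and TBI replicate 3 were the 3 highest libraries, at 1.43, 1.25 and 0.98. These 3 also had the highest Tfrc and the highest Slc25a37, but were not the top 3 for Tfr2, Steap3 or Slc11a2. For Slc11a2, control replicate 2 took place 2 and TBI replicate 1 place 5, and for Tfr2, DEIX replicate 2 took place 7. TBI+DEIX replicates 1 and 3 were the lowest in erythroid markers, at -1.94 and -1.79, and were the lowest in Slc25a37, while Tfr2 in TBI+DEIX replicate 1 took place 4 of 12. Tfr2 and Steap3 in TBI replicate 2 took place 2, although that library was at place 7 for the erythroid markers.

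**Figure D3:**
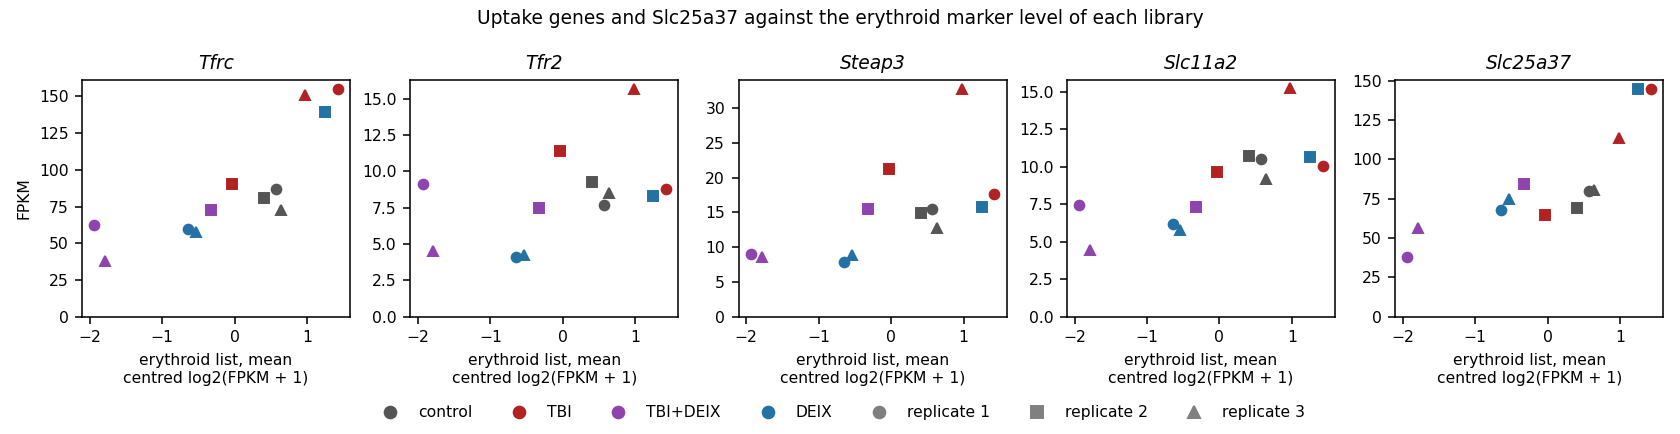
FPKM of the 4 uptake genes and Slc25a37 (vertical axes, from 0) against the mean centred log2(FPKM + 1) of 19 erythroid markers in the same library (horizontal axes); colours mark groups and symbols replicates. Tfrc and Slc25a37 are highest in the 3 libraries with the highest erythroid level, while Tfr2, Steap3 and Slc11a2 peak in TBI replicate 3.

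Ferritin RNA did not pass the test in any comparison. With limma's array weights, which let libraries count unequally, Fth1 (0.32, limma adjusted p = 0.0289) and Ftl1 (0.37, limma adjusted p = 0.0356) passed in TBI+DEIX against control and Ftl1 (0.46, limma adjusted p = 0.0329) in TBI+DEIX against TBI, where these weights called 6187 and 4488 of 10994 genes. The weights ran from 0.0709 for TBI+DEIX replicate 1 to 11.0 for control replicate 2. This setting is therefore close to leaving out TBI+DEIX replicate 1 and is no separate check of it. Fth1, the heavy chain with ferroxidase activity, measured 1187, 1219 and 1222 FPKM in control, 1339, 1179 and 1467 in TBI, 918, 1572.5 and 1503 in TBI+DEIX, and 1127, 1462 and 1095 in DEIX. The groups overlapped throughout. The log2 difference of TBI+DEIX against TBI was -0.03, with a 95% interval of -0.54 to 0.48, and that of DEIX against control was 0.01 (-0.50 to 0.52), so differences of up to about those bounds remain possible.

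Ftl1, the light chain, which aids mineral formation in the shell, measured 1940.0, 2163 and 2599.5 FPKM in control, 1982, 2045 and 1989 in TBI, 1044, 2885 and 2829 in TBI+DEIX, and 2194.5, 1994 and 1969 in DEIX. The TBI libraries lay close together, and the TBI+DEIX group held both the lowest and the 2 highest values of the 12 libraries. The log2 difference of TBI+DEIX against TBI was 0.03 (SE 0.35, limma adjusted p = 0.971). Without TBI+DEIX replicate 1 it was 0.51 and passed (SE 0.15, limma adjusted p = 0.0351), whereas Fth1 without that library was 0.22 higher and did not pass (limma adjusted p = 0.312). The ratio of Ftl1 to Fth1 was 1.14 in that library and 1.83 and 1.88 in the other two of its group. Whether reads of near-identical ferritin copies were assigned to these genes is not given in the sources used here, so both levels are uncertain to that extent. Ftl1-ps1 stood at 2.79 to 4.63 FPKM, and Ftmt and the 6 Fthl17 genes in the table were listed at 0 in all libraries.

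The ratio of Tfrc to Fth1, a pair on which the iron regulatory proteins act in opposite ways, was 0.0593 to 0.0730 in control, 0.0768 to 0.116 in TBI, 0.0251 to 0.0684 in TBI+DEIX and 0.0528 to 0.0953 in DEIX. All TBI libraries were above all control and all TBI+DEIX libraries. The ratio is of RNA and was not tested, nor was the part of erythroid cell content in it.

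Ncoa4, the receptor that delivers ferritin to lysosomes, had a higher mean in all treated groups. It measured 113, 105 and 85.3 FPKM in control, 154, 128 and 119 in TBI, 124, 152 and 169 in TBI+DEIX, and 136, 146 and 163 in DEIX. Every treated library was above every control library. Ncoa4 rose 1.46-fold in TBI+DEIX against control on the log2(FPKM + 1) scale (log2 difference 0.55, SE 0.15, limma adjusted p = 0.0204). In that comparison 1 of the 10 genes was called, against 30.0% of all tested genes. Ncoa4 and Ireb2 lay wholly above control there, 2 of 10, and Slc11a2 wholly below, where 23.9% and 21.1% of all tested genes did. DEIX against control gave a log2 difference of 0.56 (SE 0.15, limma adjusted p = 0.0527) and TBI against control 0.40 (limma adjusted p = 0.191), neither of which passed. The difference between TBI+DEIX and TBI was 0.15 (95% interval -0.19 to 0.48), and the mean level was the same to 3 digits, 148 FPKM, in TBI+DEIX and DEIX. The call against control was lost without control replicate 2 (limma adjusted p = 0.0504), control replicate 3 (0.0844), TBI+DEIX replicate 2 (0.0504) or TBI+DEIX replicate 3 (0.0699), on the TPM scale (0.128) and with only the compared groups (0.0647). The highest Ncoa4 of all was in TBI+DEIX replicate 3, at place 11 of 12 for the erythroid markers. TBI replicate 1 and DEIX replicate 2, at places 1 and 2 for those markers, measured 154 and 146 FPKM. The part of cell content in the Ncoa4 differences was not tested.

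The iron regulatory protein genes passed the test in no comparison. Ireb2, which encodes IRP2, measured 28.7, 25.0 and 23.4 FPKM in control, 32.6, 29.4 and 28.8 in TBI, 43.8, 31.4 and 29.4 in TBI+DEIX, and 28.9, 28.4 and 32.9 in DEIX. TBI and TBI+DEIX libraries were all above control, and the top value was again TBI+DEIX replicate 1. The log2 difference of TBI+DEIX against control was 0.41 (SE 0.14, limma adjusted p = 0.0505). It was 0.24 without TBI+DEIX replicate 1 (limma adjusted p = 0.0978) and 0.52 without TBI+DEIX replicate 3, where it passed (limma adjusted p = 0.0306). The difference also passed with the replicate number as a block (limma adjusted p = 0.0438) and, at 0.28, with array weights (limma adjusted p = 0.0109).

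Aco1 encodes IRP1, which serves as cytosolic aconitase when it carries an iron-sulphur cluster. It measured 8.30, 8.26 and 7.93 FPKM in control, 9.31, 8.39 and 9.60 in TBI, 11.05, 7.92 and 8.25 in TBI+DEIX, and 8.41, 9.81 and 8.42 in DEIX. TBI and DEIX libraries were all above control by a small margin, with log2 differences of 0.14 (95% interval -0.13 to 0.41) and 0.11 (-0.16 to 0.37). Aco1 was the steadiest of the 10 genes, with a root mean square deviation of 0.127 log2 units about its own mean over the 12 libraries, against 0.581 for Tfrc. The ratio of Ireb2 to Aco1, given without a test, was 2.95 to 3.46 in control, 3.00 to 3.50 in TBI, 3.57 to 3.97 in TBI+DEIX and 2.90 to 3.91 in DEIX.

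Against control, neither the TBI group nor the DEIX group gave a call among the 10 genes. In TBI against control limma called 0, against 3.99% of all tested genes. Before adjustment 2 (Ncoa4 and Steap3) were below 0.05, 2 of 10, where 18.1% of all tested genes were. Tfrc, Steap3, Ncoa4, Ireb2 and Aco1 were higher in every TBI library than in every control library, 5 of 10, where 22.0% of all tested genes were. In DEIX against control limma called 0, against 7.24% of all tested genes. Before adjustment Ncoa4 was the only 1 of the 10 below 0.05, where 24.7% of all tested genes were. Here Ncoa4 and Aco1 did not overlap, both higher, where 23.4% of all genes were. With array weights, 3 and 5 of the 10 genes were called in these comparisons, where the same weights called 4218 and 4508 of all 10994 tested genes.

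Between the DEIX groups, TBI+DEIX and DEIX, limma called 0 of the 10 genes against 2.57% of all tested genes, and 0 of 10 reached 0.05 before adjustment, where 16.2% of all tested genes did. All 10 overlapped between these groups, where 17.7% of all tested genes did not. The effect of DEIX in irradiated mice was then set against its effect in unirradiated mice as an interaction. For Tfrc this was -1.17 in log2 units (95% interval -2.24 to -0.10, limma adjusted p = 0.596), for Slc25a37 -1.08 (adjusted p = 0.689), for Steap3 -0.62 (adjusted p = 0.871) and for Ncoa4 -0.41 (adjusted p = 0.766). By limma 0 of 10 were called, against 0.200% of all tested genes, and 1 was below 0.05 before adjustment, where 7.50% of all tested genes were. A different response to DEIX with and without irradiation was thus not detectable for these genes.

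Genes with the most similar pattern were found for each of the 10 by the root mean square difference in centred log2(FPKM + 1) over 12 libraries, among 8329 genes with a mean of at least 5 FPKM. Tfrc was most like Tal1, an erythroid and stem cell transcription factor gene (0.159), followed by Abcb10, a mitochondrial transporter gene of red cell precursors (0.174), and Ptdss2 (0.183). Slc11a2 was most like Rgs12 (0.122), followed by Mcm2, a gene of DNA replication (0.129). Steap3 was nearest to Slc29a1, a nucleoside transporter gene (0.111), and Slc25a37 to Dhrs11 (0.221). The nearest genes of Tfr2, Fth1, Ftl1, Ncoa4, Ireb2 and Aco1 were Minpp1, Fam241a, Taldo1, Xpr1, Uhmk1 and Phf12, at 0.0463 to 0.0934. The patterns include differences between groups and between libraries of a group.

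Other genes of iron handling were taken from a list of 52, of which 39 were tested. In TBI+DEIX against TBI 2 were called higher and 1 lower, in DEIX against control 1 higher, in TBI+DEIX against control 5 higher and 7 lower, and in TBI+DEIX against DEIX 1 higher. In TBI against control and for the interaction limma called 0, with 4 and 3 of 39 genes at an unadjusted p under 0.05, where 18.1% and 7.50% of all tested genes were. On the TPM scale the calls in TBI+DEIX against TBI were 1 higher and 0 lower, where 157 of all 10994 tested genes were called. The 12 calls of 39 in TBI+DEIX against control stood near the background of 30.0%. The 3 of 39 in TBI+DEIX against TBI, 1 of 39 in DEIX against control and 1 of 39 in TBI+DEIX against DEIX were near or below the backgrounds of 8.10%, 7.24% and 2.57%.

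Fbxl5, whose product is the iron-sensing subunit of the ligase that degrades IRP2, had the lowest adjusted p of the listed iron genes in TBI+DEIX against TBI and in DEIX against control. It measured 67.8, 69.7 and 71.3 FPKM in control, 88.5, 68.6 and 63.1 in TBI, 168, 174 and 178 in TBI+DEIX, and 165, 137 and 154 in DEIX. All 6 libraries of DEIX-treated mice were above all 6 of the others. Fbxl5 rose 2.37-fold in TBI+DEIX against TBI (log2 difference 1.24, SE 0.13, limma adjusted p = 0.00411) and 2.16-fold in DEIX against control (1.11, SE 0.13, limma adjusted p = 0.00231). Leaving out any 1 library of the compared groups kept both calls, and the first was lost with only the compared groups in the model (limma adjusted p = 0.144). The RNA of Ireb2, the gene of its target, had a log2 difference of 0.22 in DEIX against control (limma adjusted p = 0.371) and of 0.18 in TBI+DEIX against TBI (limma adjusted p = 0.454). The ligase acts on IRP2 protein, which was not measured, so these RNA values do not show its level.

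Among the genes of haem iron, Hmox1, which encodes the haem oxygenase that frees iron from haem, rose in TBI+DEIX. It measured 72.3, 71.2 and 60.3 FPKM in control, 69.4, 63.8 and 44.4 in TBI, 116, 115.5 and 75.7 in TBI+DEIX, and 52.4, 47.2 and 51.6 in DEIX. The TBI+DEIX libraries were above all others. The log2 difference was 0.78 against TBI (limma adjusted p = 0.0353), 0.56 against control (limma adjusted p = 0.0452) and 0.98 against DEIX (limma adjusted p = 0.0252). All 3 calls were lost on the TPM scale (limma adjusted p = 0.254, 0.322 and 0.115), with only the compared groups (0.173, 0.0881 and 0.182) and without TBI+DEIX replicate 2 (0.0719, 0.122 and 0.0680). Those against TBI and control were lost without the filter on low values (0.0576 and 0.0689), and that against control with median ratio scaling (0.0577). The call against TBI was also lost without TBI replicate 2 (0.0660) or 3 (0.147), that against control without any 1 control library (0.0776 to 0.148) or TBI+DEIX replicate 1 (0.0951), and that against DEIX without any 1 DEIX library (0.0587 to 0.0943).

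Macrophages recycle haem iron. The 12 macrophage markers (with C1qb, C1qa and Vcam1 the most abundant) summed to 166 to 208 FPKM in control, 83.8 to 129 in TBI, 148 to 226 in TBI+DEIX and 76.0 to 96.6 in DEIX, and none was at 0 in all libraries. In TBI+DEIX against TBI 12 of 12 had a higher mean and 2 were called. In TBI+DEIX against control, where Hmox1 was also called, 4 of 12 had a higher mean and 8 a lower one, with a median log2 difference of -0.040 and 0 calls. Against DEIX, 11 of 12 had a higher mean in TBI+DEIX and 7 were called higher, with a median log2 difference of 1.21, and in DEIX against control 8 were called lower. The part of macrophage content in the Hmox1 difference was not tested. Slc40a1, the ferroportin gene that macrophages use to export iron, measured 67.8, 161 and 141 FPKM in TBI+DEIX and 126, 107 and 102 in TBI, and was not called.

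**Figure D4:**
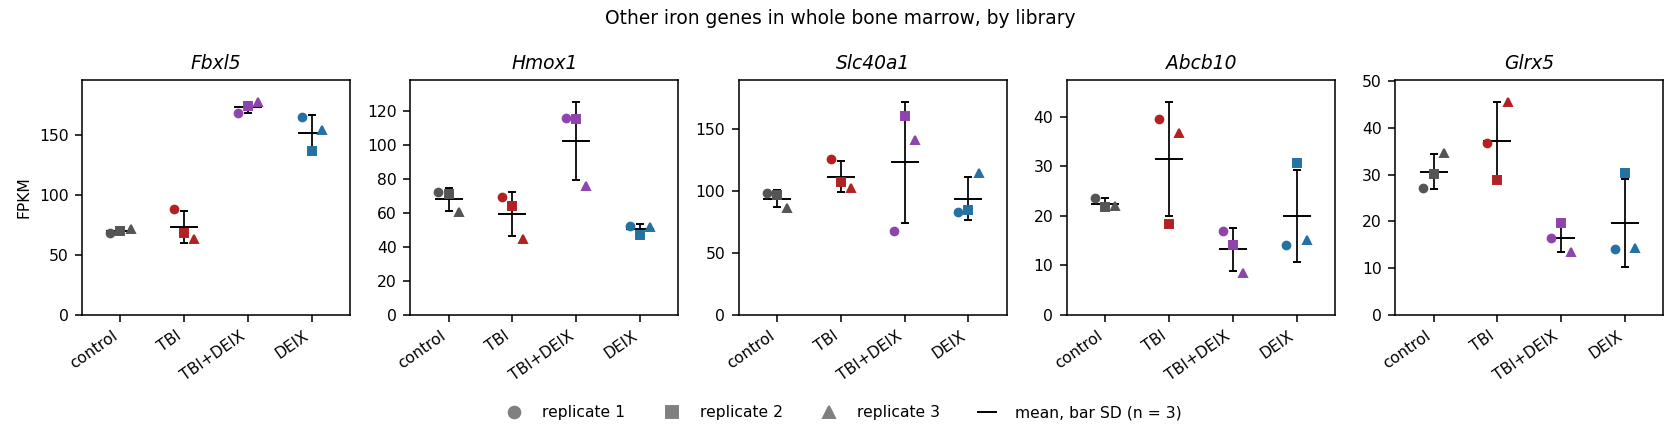
FPKM of Fbxl5, Hmox1, Slc40a1, Abcb10 and Glrx5 (vertical axes, from 0) in each of the 12 libraries by group; symbols mark the replicate, and black bars the mean and SD of 3 libraries. Fbxl5 is between 137 and 178 FPKM in the 6 libraries of DEIX-treated mice and between 63.1 and 88.5 in the others, whereas Abcb10 and Glrx5 are low in TBI+DEIX and in DEIX replicates 1 and 3.

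Of the 12 tested genes of mitochondrial iron and iron-sulphur cluster assembly, 5 fell in TBI+DEIX against control and 0 rose, where 30.0% of all tested genes were called in either direction and 1444 of 10994 were called lower. Hscb, a cochaperone gene of cluster transfer, fell by 0.83 on the log2 scale (limma adjusted p = 0.00738), while Glrx5, Isca1 and Isca2 fell by 0.86, 0.77 and 0.35. Glrx5 was also called in TBI+DEIX against TBI, at -1.11 (limma adjusted p = 0.0339), with 16.5, 19.6 and 13.4 FPKM against 36.9, 28.8 and 45.7. In the chaperone group Glrx3 fell by 0.42 (limma adjusted p = 0.0499), and among the haem genes Blvrb, a biliverdin reductase gene, fell by 1.33 (limma adjusted p = 0.0228). Single libraries decided most of these calls. Without TBI replicate 1 or 3 or TBI+DEIX replicate 3, Glrx5 against TBI was not called (limma adjusted p = 0.0588 to 0.149), and it kept the call in 6 of 13 alternatives. Against control, without any 1 control library or TBI+DEIX replicate 3, Glrx5 was not called (limma adjusted p = 0.0563 to 0.108). Without any 1 control library or TBI+DEIX replicate 1 or 3, neither Isca1 (0.0926 to 0.132) nor Glrx3 (0.0541 to 0.141) was called. Without control replicate 2 or 3 or TBI+DEIX replicate 1 or 3, neither Isca2 (0.0725 to 0.156) nor Blvrb (0.0520 to 0.0739) was called. Of 13 alternatives, Hscb kept its call in 13, Blvrb in 9, Glrx5 in 8, Isca1 and Isca2 in 6 and Glrx3 in 5. In this comparison 19 of 19 erythroid markers also had a lower mean and 13 were called, and their part in these differences was not tested.

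The other iron genes that rose in TBI+DEIX against control were, beside Fbxl5 and Hmox1, Exoc6, Flvcr1 and Ltf. Exoc6, an exocyst gene needed for transferrin receptor recycling in red cell precursors, rose by a log2 difference of 0.47 (limma adjusted p = 0.00509), with 30.4, 31.5 and 29.5 FPKM in control and 48.9, 38.2 and 41.2 in TBI+DEIX. Flvcr1, a haem exporter gene, rose by 0.56 (limma adjusted p = 0.00429). Ltf, the lactoferrin gene of neutrophil granules, rose by 1.03 (limma adjusted p = 0.0426), and Lcn2, which encodes a siderophore-binding protein of the same granules, differed by 1.07 without passing (limma adjusted p = 0.0571). The calls of Exoc6 and Flvcr1 were lost on the TPM scale (limma adjusted p = 0.287 and 0.136). Ltf kept its call in 5 of 13 alternatives and lost it without any 1 control library or TBI+DEIX replicate 2 or 3 (limma adjusted p = 0.0896 to 0.122). Neutrophil markers, a list that holds Ltf and Lcn2 themselves, had 10 of 15 higher means with 3 called higher and 1 lower, and their part was not tested.

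Of the 10 genes listed for export and hormonal control only Slc40a1, given above, and Erfe passed the filter on low values, and Hamp, the hepcidin gene, averaged 0.198 FPKM. Erfe, which encodes the erythroid hormone erythroferrone, measured 0.265, 0.234 and 0.136 FPKM in control, 0.636, 2.78 and 4.10 in TBI, 1.71, 3.95 and 1.64 in TBI+DEIX, and 0.840, 7.76 and 0.305 in DEIX. Every treated library was above every control library, but Erfe was called in no comparison. The log2 difference was 1.38 for TBI against control (limma adjusted p = 0.267) and 1.44 for TBI+DEIX against control (limma adjusted p = 0.102). These low values depend on the pseudocount: with 0.1 in place of 1 they were 2.76 (limma adjusted p = 0.159) and 2.93, where the second passed (limma adjusted p = 0.0378). Both also passed with array weights (limma adjusted p = 0.00175 and 0.00337) and with only the compared groups (0.0434 and 0.0128).

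The most abundant of the remaining genes were not called. Trf, the transferrin gene itself, averaged 38.7, 28.7, 39.4 and 41.4 FPKM in the control, TBI, TBI+DEIX and DEIX groups. Snx3, a sorting gene of receptor recycling, averaged 97.1, 116, 107 and 107, and the iron chaperone genes Pcbp1 and Pcbp2 161, 188, 177 and 161 and 354, 409, 361 and 392.3, in the same order of groups. Zfp36, whose product destabilises messages, averaged 62.3, 53.5, 72.9 and 69.5 FPKM, and the cluster scaffold gene Iscu 61.3, 54.5, 62.4 and 55.6. None of these 6 was called by limma in any of the 6 comparisons.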

How the data were processed

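Bone marrow RNA of 12 libraries was measured, 3 in each of 4 groups, from directional libraries, per the labels' protocols. The authors deposited FPKM per gene and library, a value scaled by transcript length and mapped fragments. Count models were not applied, since FPKM carries no counts. STAR 2.6, Cufflinks 2.2.1 and the mm10 build are named per the submitters' processing notes, without their roles or settings. All 21853 identifiers matched GENCODE vM21, which gave symbols and 1-based coordinates. FPKM was tested as log2(FPKM + 1), which understates changes of low genes, for genes with at least 1 FPKM in at least 3 libraries. limma 3.58.1 in R 4.3.3 (lmFit, eBayes with a mean-variance trend) fitted 4 group means to all 12 libraries (8 residual degrees of freedom), with Benjamini-Hochberg adjustment over 10994 genes. The fitting script was tested on simulated data. Total reads are unknown. The steps of low values put the worth of 1 read, relative to control replicate 1, at 0.892 to 1.64 in 10 libraries, 1.89 in TBI+DEIX replicate 3 and 2.35 in TBI+DEIX replicate 1, where 20 genes gave this value and 19 the next, so that its depth is poorly resolved. A higher worth means fewer reads.

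The 10 genes, the lists and the tests were chosen with earlier results of these data known. Besides the 10, the genes named were other iron genes called in any comparison or among the 2 of highest mean in their role, the 3 most abundant markers of a list, and the nearest genes in pattern. Slc4a1, Epor, Hamp, Steap4, Hfe, Zc3h12a and the ferritin copies were named after their values were seen. Some genes that the rule names are not reported here. The alternatives were another pseudocount, no filter, TPM and median ratio scaling, array weights, a replicate block, only the compared groups, and each library left out.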

Additional observations from a re-analysis of the deposited data

Results flagged for a closer look

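Among the other iron genes reported here, 3 had mean differences of opposite sign under DEIX in irradiated and unirradiated mice, with every TBI+DEIX library on 1 side of the TBI mean and every DEIX library on the other side of the control mean. The difference between the effects, in log2 units, was 1.20 for Hmox1 (limma adjusted p = 0.137), 0.49 for Zc3h12a (limma adjusted p = 0.235) and -0.33 for Pcbp2 (limma adjusted p = 0.727). None of the 3 passed the interaction test over all genes. Of their 6 differences under DEIX, only that of Hmox1 in TBI+DEIX against TBI was called (limma adjusted p = 0.0353), and Hmox1 in DEIX against control was not (limma adjusted p = 0.200). Hmox1 averaged 59.2 FPKM in TBI, 102 in TBI+DEIX, 67.9 in control and 50.4 in DEIX. Zc3h12a, the gene of an RNase that cuts Tfrc messages among others, averaged 6.02, 7.79, 6.63 and 5.83 FPKM in the same order. Pcbp2, an iron chaperone gene, averaged 409, 361, 354 and 392.3 FPKM. Of the 12 macrophage markers 5 were called in the interaction, all higher, and their part in it was not tested.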

How the results depend on the processing

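The replicate numbers do not pair the libraries: over 18 same-numbered pairs the correlation of deviations from the group means ran from -0.447 to 0.242, with 3 above 0.1. With the replicate number as a block, 0 of the 10 genes were called in TBI+DEIX against TBI and 2 in TBI+DEIX against control, and 2 other iron genes in DEIX against control. Over all 10994 genes the block gave 474, 3000 and 640 calls in these comparisons.

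Counts of the 10 genes called, and of other iron genes called, were sensitive to single libraries. Over all tested genes, calls ran from 5 (without TBI replicate 3) to 2836 (without TBI+DEIX replicate 1) in TBI+DEIX against TBI, and from 2004 to 4232 in TBI+DEIX against control. They ran from 146 to 938 in DEIX against control and from 50 to 927 in TBI+DEIX against DEIX. Leaving out 1 library gave 0 to 4 and 1 to 12 in TBI+DEIX against TBI, 0 to 2 and 5 to 13 in TBI+DEIX against control, 0 and 1 to 4 in DEIX against control, and 0 and 0 to 3 in TBI+DEIX against DEIX. With array weights (gene-by-gene estimates, a method chosen after seeing that the default did not converge), the counts were 3 and 12 in TBI against control, 5 and 20 in TBI+DEIX against TBI, 5 and 16 in DEIX against control, 6 and 23 in TBI+DEIX against control, and 3 and 2 other iron genes in TBI+DEIX against DEIX and in the interaction. In the first 4 of these comparisons array weights called 4218, 4488, 4508 and 6187 of all 10994 genes, against 439, 891, 796 and 3299 without them. In TBI+DEIX against DEIX and in the interaction they called 948 and 532, against 283 and 22 without them. With only the compared groups, 4 other iron genes were called in TBI against control, 0 and 0 in TBI+DEIX against TBI, 1 and 5 in DEIX against control, 0 of the 10 in TBI+DEIX against control and 0 others in TBI+DEIX against DEIX. In the same order of comparisons, this setting called 1417, 0, 2057, 2181 and 0 of all 10994 genes. The TPM scale, which shifts the median of all genes by -0.121 in TBI+DEIX against TBI, -0.139 in DEIX against control and -0.115 in TBI+DEIX against control, gave 0 and 1 in TBI+DEIX against TBI, then 0 of the 10 in TBI+DEIX against control and 0 others in TBI+DEIX against DEIX. Over all 10994 genes it called 157, 1785 and 125 in these last comparisons of TBI+DEIX against TBI, control and DEIX. Without the filter 0 of the 10 were called in TBI+DEIX against TBI, where 677 of 17304 genes were. The causes were not tested.

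Across all alternatives, the single-gene differences given in the text kept direction and side of the threshold in 674 cases, lost it in 84, newly passed in 25 and changed sign in 30. In the comparisons against control or TBI, signs changed for 12 differences of the 10 genes, none of them called; a further 10 changed sign in TBI+DEIX against DEIX and the interaction and are not listed. Ranges are over single libraries left out. In TBI against control Slc11a2 was -0.020 with array weights and -0.036 to 0.27. In TBI+DEIX against TBI, Fth1 was 0.30 with array weights and -0.17 to 0.22, Ftl1 -0.11 as TPM and -0.22 to 0.51 (passing only at 0.51 and, at 0.46, with array weights), and Aco1 -0.15 to 0.066. In DEIX against control Tfrc was -0.43 to 0.20, Slc25a37 -0.096 to 0.45, Ftl1 -0.21 to 0.00085, Aco1 -0.031 as TPM, and Fth1 -0.14 as TPM, -0.020 with median ratio scaling, -0.059 with array weights and -0.12 to 0.086. In TBI+DEIX against control Fth1 was 0.32 with array weights, where it passed (limma adjusted p = 0.0289), -0.029 as TPM and -0.042 to 0.35, Ftl1 0.37 with array weights, where it passed (limma adjusted p = 0.0356), and -0.37 to 0.37, and Aco1 -0.019 with array weights and -0.012 to 0.20.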

Other observations

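Steap4, another metalloreductase gene of the uptake list, varied widely between libraries of the same group. It measured 5.18, 4.66 and 5.08 FPKM in control, 12.6, 7.24 and 6.89 in TBI, 2.47, 46.5 and 50.9 in TBI+DEIX, and 29.7, 8.03 and 21.1 in DEIX. The TBI+DEIX group thus held the lowest library and the 2 highest of the 12, with the lowest again replicate 1. Hfe, whose product binds transferrin receptor 1, stood at 10.2 FPKM in DEIX replicate 2 and at 3.05 to 5.78 in the other 11 libraries. Every DEIX library was above every control library for Hfe, with a log2 difference of 0.65 that did not pass (limma adjusted p = 0.0727). DEIX replicate 2 was also the only DEIX library with a high erythroid marker level.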
